A study of Mus musculus with 30 samples.

Results

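The 10 genes described here encode chemokines that are made in the thymic medulla or guide cells through it: Ccl19, Ccl21a, Ccl17, Ccl22, Ccl20, Ccl25, Cxcl12, Cxcl9, Cxcl10 and Xcl1. They were taken by name from a list drawn up with earlier results of these data known, and all 10 were found among the 55011 genes of the count files and among the 35999 gene symbols of the transcript-level files. After removal of genes with low counts, 10 of 10 were tested in the transcript-level files and 9 of 10 in the gene count files, where Ccl21a was the gene left out. Medullary thymic epithelial cells (mTECs) display proteins of other organs to developing T cells, in large part through the transcription regulator Aire. The study measured RNA in sorted mTECs of mice with and without Aire, after injected compounds, and with a floxed Nfe2l2 gene, and its title places the work around Z-DNA and the choice of genes by Aire.

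Chemokines are small secreted proteins that bind G protein-coupled receptors and set the direction in which cells move. In the thymus, ligands of Ccr7, Ccr4 and Ccr9 draw thymocytes and their progenitors into and through the cortex and medulla, and ligands of Ccr4 and Xcr1 also bring dendritic cells to mTECs. Cxcl12 acts on early thymocytes through Cxcr4, and Cxcl9 and Cxcl10 are interferon-inducible ligands of Cxcr3.

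Of the 30 samples of the series, 21 were used. All came from female C57BL/6J mice of 4 to 6 weeks, and each library was made from 1000 sorted cells after depletion of CD45+ cells. From untreated mice, Aire-GFP+ mTECs, sorted on a green reporter of the Aire gene and called B6 Aire-GFP+ here, gave 3 WT and 2 Aire-KO libraries. The other libraries came from mTEChi, the mature fraction of medullary epithelium with high MHC class II, with 2 libraries in each of 8 groups. These were WT mice injected intraperitoneally with PBS, WT with Spermidine (a natural polyamine), Aire-KO with PBS, Aire-KO with Spermidine, WT with DMSO, WT with Topotecan (a topoisomerase I inhibitor), Foxn1-cre,Nfe2l2+/+ and Foxn1-cre,Nfe2l2 fl/fl. Foxn1-cre acts in the whole thymic epithelium and was carried by both Nfe2l2 groups, and Nfe2l2 encodes the antioxidant regulator Nrf2. The labels state no dose and no time of injection. The labels do not tie the libraries to separate animals, so p-values measure only the spread between libraries, which may be technical. The share of all genes whose groups did not overlap was not counted for any comparison. A lack of overlap is therefore given below as a description of the values only.

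Library totals were 6.62 M to 12.68 M estimated counts in B6 Aire-GFP+ cells and 2.03 M to 5.72 M counts in mTEChi (M stands for mega). Levels are given as CPM, counts per M of the library total after TMM scaling. All 13 medullary epithelial markers were counted in every group, and none was at 0. Aire RNA did not mark the knockouts: it was 1508 and 1774 CPM in the B6 Aire-KO libraries against 1603, 1686 and 1671 in WT, and 4096 to 5075 in the 4 mTEChi Aire-KO libraries against 1621 to 1814 in the 4 WT libraries. Counts over the whole gene therefore do not check the Aire labels. Likewise, Nfe2l2 was 90.7 and 91.4 CPM in the libraries labelled Nfe2l2+/+ and 105.5 and 86.6 in those labelled fl/fl, so that deletion is known from the labels alone.

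Ccl19 and Ccl21a are the ligands of Ccr7, which brings positively selected thymocytes into the medulla. They lie next to each other on chromosome 4 (GRCm38, Ccl19 at chr4:42754525-42756577 and Ccl21a at chr4:42772860-42773993, both on the minus strand) in a region of near-identical gene copies. Of the 31-base stretches of Ccl21a transcripts, 80.6% also occur in another gene, mainly the copies Gm21541 and Gm13304, and for Ccl19 the share is 58.8%, with Gm2564. The coding sequence of Ccl21a, 402 bases, differs from those of the copies by T84A and C194T, positions counted from the A of the start codon, which makes 99.50% identity. Coding bases 55 to 114 are shown because the capital letter, at position 84, is all that separates the gene from its copy over this stretch (GENCODE transcripts, 5′ to 3′).
Ccl21a: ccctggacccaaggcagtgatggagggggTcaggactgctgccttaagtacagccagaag
Gm21541: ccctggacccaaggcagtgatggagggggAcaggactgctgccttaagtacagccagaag

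Without Aire, Ccl19 RNA rose in B6 Aire-GFP+ cells and Ccl21a RNA did not pass the test. Ccl19 was at 440.2, 451.6 and 255.5 CPM in the WT libraries and at 862.7 and 851.2 in the Aire-KO libraries. The Aire-KO libraries were both above every WT library, and WT replicate 3 was the lowest. The log2 fold change was 1.16 (SE 0.22, adjusted p = 0.00387). Ccl21a was at 586.8, 346.9 and 612.7 CPM in WT and at 656.3 and 727 in Aire-KO. These groups did not overlap either, but the difference did not pass the test (log2 0.42, 95% interval -0.07 to 0.92, adjusted p = 0.150), and it was 0.03 when counts were scaled by library totals alone. It did pass without the low-count filter (0.43, adjusted p = 0.000979) and with a replicate block (0.61, adjusted p = 0.0162). With its copies Gm21541 and Gm13304 added, Ccl21a summed to 915, 645 and 1068 CPM in WT and to 1012 and 1177 in Aire-KO, so the sums overlapped. Estimated counts were split among these copies by kallisto, and Gm13304 alone ranged from 0.617 to 137.9 CPM within WT, so the value of a single copy is uncertain. Ccl19 also shares sequence with copies, and no sum over them was made, so its rise carries a similar limit.

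In mTEChi both Ccr7 ligands were at or near the bottom of the count tables. Ccl19 had 4 to 27 counts per library and 1.75 to 6.28 CPM over the 16 libraries, and Ccl21a had 0 counts in all but the second fl/fl library, which had 3. Ccl19 did not differ between Aire-KO and WT there (log2 -0.05 averaged over PBS and Spermidine, 95% interval -1.12 to 1.01). The labels do not say how the mTEChi counting treated reads that match several genes, and its part in the low counts was not tested.

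Ccl17 and Ccl22, both ligands of Ccr4, are neighbours on chromosome 8 (GRCm38, Ccl22 at chr8:94745590-94751699 and Ccl17 at chr8:94810453-94812036, both on the plus strand). Of these, Ccl22 passed the test of Aire loss in B6 Aire-GFP+ cells and not in mTEChi. In B6 Aire-GFP+ cells Ccl22 fell from 217.3, 190.6 and 127.1 CPM in WT to 42.2 and 29.8 in Aire-KO. Every Aire-KO value was far below every WT value, and the log2 change was -2.31 (SE 0.26, adjusted p = 0.000405). Ccl22 was, in mTEChi with PBS, at 503.2 and 194.1 CPM in WT and at 387.1 and 322.3 in Aire-KO. The Aire-KO values lay between the WT values (log2 0.02, 95% interval -0.76 to 0.80, adjusted p = 0.983). With Spermidine, Ccl22 was at 170 and 140.7 CPM in WT and at 216.1 and 219 in Aire-KO (log2 0.48, adjusted p = 0.487). Ccl17 was low throughout. It was at 22.3, 15.5 and 18.9 CPM in B6 WT and at 16.5 and 6.91 in Aire-KO, which overlapped (log2 -0.69, adjusted p = 0.166), and the call depended on the scaling: by library totals alone it was lower, at -1.09 (adjusted p = 0.0476). In the 8 mTEChi libraries with PBS or Spermidine Ccl17 ranged from 3.91 to 16.6 CPM with no separation by genotype.

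Ccl20, the ligand of Ccr6, was lower without Aire in both sorts. Ccl20 was in B6 Aire-GFP+ cells at 223.5, 224.9 and 167.9 CPM in WT and at 129.8 and 57.2 in Aire-KO. The groups did not overlap, and Aire-KO replicate 2 was the lowest library (log2 -1.14, SE 0.31, adjusted p = 0.0198). Without that library the change was -0.65 (adjusted p = 0.0582). In mTEChi the gap was wider: with PBS, Ccl20 was at 235.9 and 139.2 CPM in WT and at 16.9 and 35.6 in Aire-KO. With Spermidine it was at 165.3 and 157.3 CPM in WT and at 20.4 and 54.9 in Aire-KO. All 4 Aire-KO libraries lay below all 4 WT libraries. The log2 changes were -2.82 (SE 0.43, adjusted p = 0.000991) with PBS and -2.11 (SE 0.43, adjusted p = 0.00707) with Spermidine, where the call was lost without Aire-KO replicate 1 (-1.56, adjusted p = 0.0928).

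Ccl20 lies on chromosome 1 (GRCm38, chr1:83116766-83119167, plus strand). The 250 bases before its start (GRCm38.p6, chr1:83116516-83116765, plus strand, from RefSeq) are shown because Ccl20 had the lowest adjusted p of the 9 chemokines tested in mTEChi with PBS. The capitals mark a match to a kappaB-type motif, GGG and TTTCC with any 2 bases between them, on the minus strand at bases -80 to -71.
Ccl20: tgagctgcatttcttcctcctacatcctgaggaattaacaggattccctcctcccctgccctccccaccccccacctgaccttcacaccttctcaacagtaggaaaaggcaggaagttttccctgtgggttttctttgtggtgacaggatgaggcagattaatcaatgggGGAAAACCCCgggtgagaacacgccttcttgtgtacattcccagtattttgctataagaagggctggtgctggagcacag

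Motifs were searched on both strands of promoters of 300 bases, 250 before and 50 after the start: a kappaB-type motif (GGG and TTTCC with any 2 bases between them), an interferon-stimulated element type (GAAA and GAAA with any 2 bases between) and a gamma-activated site type (TTC and GAA with any 3 bases between). All 10 genes matched a RefSeq entry, with 11 promoters. Of 32851 RefSeq promoters, 1.63% held the first motif, 3.44% the second and 8.3% the third. Ccl20 was the only one of the 10 genes with the first in exactly these letters, Cxcl10 and Ccl19 held the second, and Ccl17 held the third. Other forms of these motifs were not searched, so a window without a match may still hold a related site. A match of letters is a description of the window and does not show that a factor binds there.

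Ccl25, the ligand of Ccr9 and a product of both cortical and medullary epithelium, rose without Aire in both sorts. Its level in B6 Aire-GFP+ cells was 648.8, 540.6 and 567 CPM in WT and 2263 and 2252 in Aire-KO. The Aire-KO libraries were nearly equal and far above WT (log2 1.95, SE 0.10, adjusted p = 1.83e-05). Ccl25 was, in mTEChi with PBS, at 438 and 344.5 CPM in WT and at 846.3 and 826.1 in Aire-KO. With Spermidine the values were 393.7 and 404 CPM in WT and 861.6 and 883.2 in Aire-KO. Again no Aire-KO library overlapped a WT library. The log2 changes were 1.09 (SE 0.31, adjusted p = 0.0392) with PBS and 1.13 (SE 0.31, adjusted p = 0.0375) with Spermidine. The calls were lost without any of the libraries compared (adjusted p from 0.0865 to 0.204 for PBS) and with library totals alone (0.0809 and 0.0749), while the average over PBS and Spermidine was 1.11 (SE 0.22, adjusted p = 0.00249).

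The gene spans chr8:4325210-4360020 (GRCm38, plus strand) and shares 204 exon bases with Elavl1 on the other strand. In the B6 files, 99.3 to 99.75% of Ccl25 counts came from the 2 of 10 annotated transcripts that begin at base 4349588, which lies 24378 bases inside the outermost start. This held in WT and Aire-KO libraries. The 250 bases before that inner start (GRCm38.p6, chr8:4349338-4349587, plus strand, from RefSeq) are shown because nearly all counts of the gene used it. None of the 3 motifs was found in the 300-base window around either RefSeq start of Ccl25, so no base is in capitals.
Ccl25: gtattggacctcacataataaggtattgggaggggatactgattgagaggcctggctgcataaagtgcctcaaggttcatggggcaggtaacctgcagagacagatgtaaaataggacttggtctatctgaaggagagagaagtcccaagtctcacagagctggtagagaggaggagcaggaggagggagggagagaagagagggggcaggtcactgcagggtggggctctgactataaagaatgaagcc

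Cxcl12, the ligand of Cxcr4 and Ackr3, fell in B6 Aire-GFP+ cells from 16.04, 25.5 and 12.2 CPM in WT to 2.74 and 1.89 in Aire-KO (log2 -2.96, SE 0.42, adjusted p = 0.00118). The groups did not overlap. In mTEChi with PBS it was at 67.4 and 56.3 CPM in WT and at 25.17 and 20.04 in Aire-KO, again without overlap (log2 -1.46, SE 0.27, adjusted p = 0.00350). With Spermidine it was at 43.6 and 52.6 CPM in WT and at 47.6 and 72.0 in Aire-KO, and here the groups overlapped (log2 0.32, 95% interval -0.24 to 0.87, adjusted p = 0.515). The PBS call was lost without Aire-KO replicate 2 (-1.30, adjusted p = 0.0515). Averaged over PBS and Spermidine, whose values had opposite signs, the change was -0.57 (adjusted p = 0.0403), a call that was lost in 7 of 15 other settings, 6 of which left out 1 library (adjusted p up to 0.162). Fibroblast markers, 10 genes of a cell type known to make Cxcl12, summed to 104 to 152 CPM in B6 WT and 275 to 355 in B6 Aire-KO. Dcn carried that sum, from a mean of 44.97 to 273 CPM. Of the 9 fibroblast markers tested there, 2 rose, 2 fell (Col1a1 and Col3a1) and the median log2 change was -0.75. In mTEChi with PBS the 10 summed to 250 to 358 CPM in WT and 225 to 246 in Aire-KO, where 0 rose, 3 fell and the median was -2.5, in the direction of Cxcl12. With Spermidine, where Cxcl12 changed by 0.32, these markers summed to 227 to 435 CPM in WT and 223 to 231 in Aire-KO. There 0 rose, 1 fell and the median was -1.38, against the direction of Cxcl12. Their part in the result was not tested.

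Cxcl9 and Cxcl10 sit side by side on chromosome 5 (GRCm38, chr5:92321347-92328079 and chr5:92346638-92348889, both on the minus strand) and bind the same receptor, Cxcr3, but moved differently. Cxcl10 rose without Aire in both sorts. In B6 Aire-GFP+ cells it was at 377.8, 296.4 and 333.5 CPM in WT and at 694 and 646.9 in Aire-KO. The log2 change was 1.00 (SE 0.12, adjusted p = 0.000517), with no overlap. In mTEChi it was at 258.9 and 261.5 CPM in WT with PBS and at 452.2 and 521.7 in Aire-KO with PBS. With Spermidine it was at 256.3 and 230.5 CPM in WT and at 443.4 and 415.2 in Aire-KO. All 4 Aire-KO libraries lay above all 4 WT libraries, by log2 0.90 (SE 0.15, adjusted p = 0.00180) with PBS and 0.82 (SE 0.15, adjusted p = 0.00422) with Spermidine, where the call was lost without WT replicate 2 (0.74, adjusted p = 0.0540). Cxcl10 shares 133 exon bases with Art3 on the other strand, and neither library type keeps the strand.

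Cxcl9, in contrast, was at 118.3, 87.9 and 101.4 CPM in B6 WT and at 131.5 and 78.4 in B6 Aire-KO, which overlapped (log2 0.03, 95% interval -0.48 to 0.54, adjusted p = 0.919). In mTEChi with PBS it was at 53.2 and 93.2 CPM in WT and at 37.8 and 51.5 in Aire-KO. The Aire-KO values were the lower ones, without passing the test (log2 -0.70, adjusted p = 0.177). Averaged over PBS and Spermidine the change was -0.68 (SE 0.23, adjusted p = 0.0433), a call that was lost in 9 of 15 other settings. The promoter of Cxcl10 (GRCm38.p6, chr5:92348890-92349139, minus strand, 250 bases before the start, from RefSeq) is shown because it held the match to the interferon-stimulated element type, in capitals at bases -213 to -204, which the Cxcl9 window did not.
Cxcl10: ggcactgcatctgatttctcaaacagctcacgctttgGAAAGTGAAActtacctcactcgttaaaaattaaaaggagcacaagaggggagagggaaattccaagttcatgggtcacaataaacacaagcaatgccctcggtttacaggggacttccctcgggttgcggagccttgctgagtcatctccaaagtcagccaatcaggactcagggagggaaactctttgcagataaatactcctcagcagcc

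Xcl1, which attracts Xcr1+ dendritic cells, nearly vanished without Aire. In B6 Aire-GFP+ cells it was at 7.33, 21.2 and 2.93 CPM in WT and at 0.833 and 0 in Aire-KO. WT varied widely, but every WT library was above both Aire-KO libraries (log2 -4.73, SE 1.22, adjusted p = 0.0156). In counts these were 324 over the 3 WT libraries and 7 over the 2 Aire-KO libraries, a ratio of CPM of 30.1 (exact interval 14.4 to 75.4, for counting error only). In mTEChi, Xcl1 had 8 and 0 counts in WT with PBS, 3 and 25 in WT with Spermidine, 0 and 0 in Aire-KO with PBS, and 0 and 1 in Aire-KO with Spermidine. With PBS the ratio of WT to Aire-KO was 2.87 when 3 counts over the Aire-KO group stood in for the count of 0. The exact interval, taken from the count of 0 and for counting error only, began at 1.84. The 8 WT counts came from 1 library, and this difference did not pass the test (adjusted p = 0.259). Over PBS and Spermidine, 36 counts in WT stood against 1 in Aire-KO, a ratio of 33.3 (exact interval 5.6 to 1350). That averaged difference passed the test (adjusted p = 0.0498) and was lost in 7 of 14 other settings, and the B6 call was lost with limma-voom (adjusted p = 0.127), without WT replicate 2 (0.0520) and without Aire-KO replicate 2 (0.0813).

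**Figure D1:**
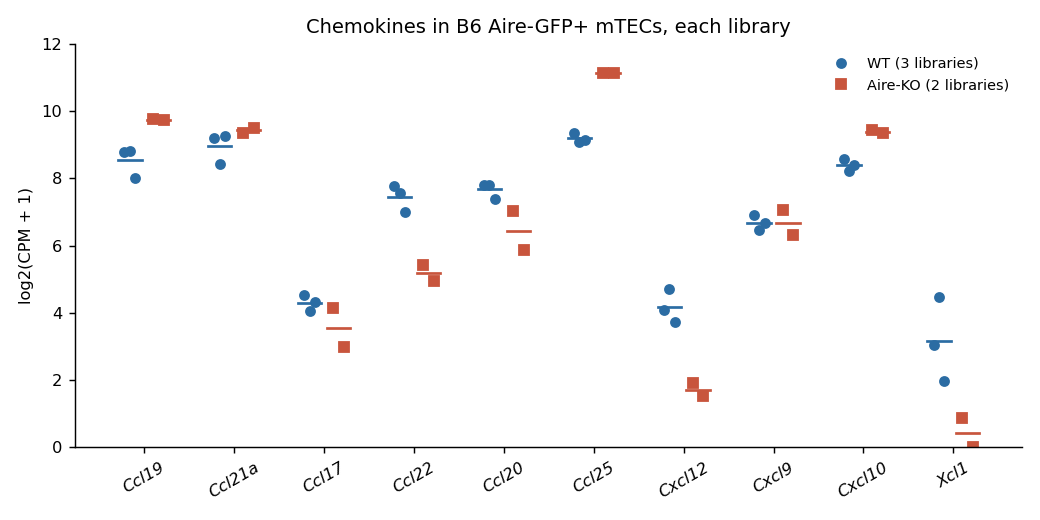
Level of each chemokine in the B6 Aire-GFP+ libraries, as log2(CPM + 1), with points for the 3 WT and 2 Aire-KO libraries and lines for group means. Ccl19, Ccl25 and Cxcl10 stood higher in both Aire-KO libraries, as did Ccl21a by a margin that did not pass the test, Ccl22, Ccl20, Cxcl12 and Xcl1 stood lower, and Ccl17 and Cxcl9 overlapped.

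Counted together, 7 of the 10 chemokines changed in B6 Aire-GFP+ cells, 3 higher and 4 lower, where 41.3% of all 17923 genes tested passed (19% higher and 22.3% lower). The median log2 change was -0.33 over the 10 genes and -0.12 over all genes. With PBS, 4 of 9 passed in mTEChi, 2 higher and 2 lower, against 10.3% of all 18418 genes (5.21% higher and 5.08% lower). With Spermidine 3 of 9 passed, 2 higher and 1 lower, against 9.11% (4.77% higher and 4.34% lower). Averaged over both, 6 of 9 passed, 2 higher and 4 lower, against 22.8% of all genes (10.3% higher and 12.5% lower). Scaling by library totals alone moved the median of all genes to -0.51 in B6 and to -0.23 in the mTEChi average (-0.05 with TMM), and the 7 and 6 called directions stayed as given. It also moved the split of all calls, from 3410 higher and 4000 lower to 1591 and 6250 in B6, from 960 and 936 to 581 and 1387 with PBS, from 879 and 799 to 558 and 1081 with Spermidine, and from 1890 and 2305 to 1167 and 3222 in the average. Over the 10 genes, however, Ccl21a and Cxcl9 in B6 had no stable direction: in TPM, which carries no TMM scaling, both means were lower in Aire-KO.

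**Figure D2:**
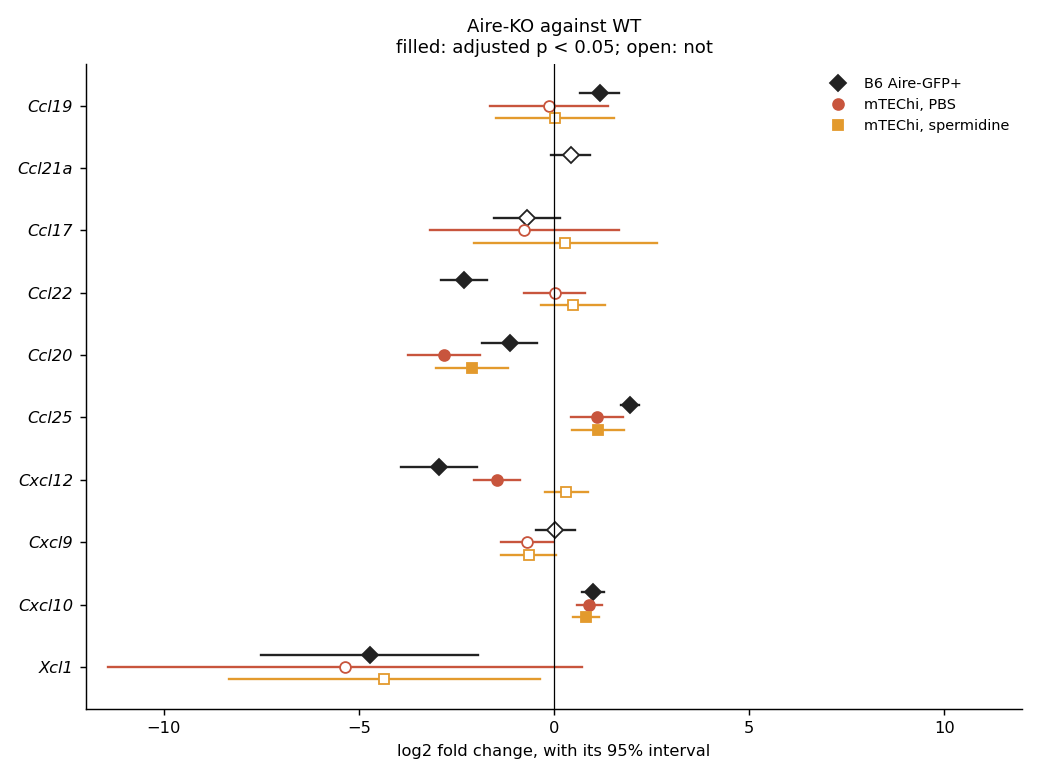
Log2 fold change of Aire-KO against WT with its 95% interval for each chemokine in B6 Aire-GFP+ cells, mTEChi with PBS and mTEChi with Spermidine; filled points passed the test. Ccl25 and Cxcl10 lay right of 0 and Ccl20 left of 0 in all 3 comparisons, whereas Ccl22 and Cxcl12 lay far left in B6 and at or right of 0 in at least 1 mTEChi comparison.

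The sizes of the Aire effect in the separate sorts were compared directly by a test chosen after seeing the data, of B6 minus the mTEChi average, in which 17.7% of 16109 genes passed. The difference passed for 3 of 9 chemokines: Ccl22 (log2 -2.46, SE 0.41, adjusted p = 0.00158), Cxcl12 (-2.29, SE 0.43, adjusted p = 0.00284) and Ccl25 (0.94, SE 0.13, adjusted p = 0.000608). For Ccl20 it was 1.43 (adjusted p = 0.0567) and for Cxcl10 0.24 (adjusted p = 0.293), which did not pass. The sort, the counting method and the experiment differed together between these libraries and cannot be told apart.

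Marker levels of other cell types moved with genotype too. In B6 Aire-GFP+ cells the summed level of 13 medullary markers was 30810 to 30920 CPM in WT and 66370 to 70200 in Aire-KO, with 5 markers higher, 2 lower and a median log2 change of 0.19. The sum of 9 cortical markers was 2500 to 2757 against 5270 to 5874, but 5 of them fell, 3 rose and the median was -0.78. The 12 dendritic cell markers, a type known to make Ccl17 and Ccl22, summed to 303 to 366 CPM in B6 WT and 288 to 425 in Aire-KO, where Cd209a and Cd207 were at 0. Of 11 tested, 5 fell, as did Ccl22, and 2 rose, with a median of -0.89. In mTEChi with PBS they summed to 641 to 697 CPM in WT and 1267 to 1323 in Aire-KO, with Ccr7 making up 177.5 and 494.3 of the group means and Cd207 at 0 in Aire-KO, and 3 of 12 rose and 1 fell (median -0.28). Microfold markers, known to go with Ccl20 in gut epithelium, summed to 3406 to 3733 CPM in mTEChi WT with PBS and 2585 to 2632 in Aire-KO, none at 0, and 5 of 10 fell and 0 rose (median -0.85). In B6 they summed to 2540 to 3133 and 3079 to 3321, but 7 of 10 fell, as did Ccl20, and 2 rose (median -0.79). Macrophage markers summed in B6 to 1074 to 1484 CPM in WT and 2211 to 2228 in Aire-KO, with 2 of 9 higher, 5 lower and a median of -1.28, and B cell markers to 98.1 to 106.2 and 144.1 to 178.1, with 2 of 8 higher and 1 lower. Tuft markers summed in mTEChi with PBS to 653 to 1432 CPM in WT and 363 to 388 in Aire-KO, where 6 of 12 fell and 0 rose, and 10 fell in the average over PBS and Spermidine. The part of these markers in the chemokine results was not tested. In bulk libraries, fewer cells of a type and less RNA per cell cannot be told apart.

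Corrected for transcript length as TPM, the make-up of the 10 chemokines in B6 Aire-GFP+ cells shifted towards Ccl25. TPM was used as deposited, without the TMM factors, which were 1.10 to 1.13 in the WT and 0.839 to 0.856 in the Aire-KO libraries. Levels in TPM therefore compare the genotypes on another scale than CPM. In WT the order of mean TPM was Ccl21a at 979, Ccl19 at 870, Ccl25 at 773, Cxcl10 at 405, Ccl20 at 384, Ccl22 at 100.3, Ccl17 at 66.5, Cxcl9 at 42.9, Xcl1 at 35.9 and Cxcl12 at 10.7. The ranges of neighbours separated only Ccl25 from Cxcl10, Ccl20 from Ccl22 and Ccl17 from Cxcl9. In Aire-KO Ccl25 led at 2073, followed by Ccl19 at 1325, Ccl21a at 808 and Cxcl10 at 583, all without overlap. Next came Ccl20 at 122, Cxcl9 at 31.1, Ccl17 at 28.2, Ccl22 at 14.2, Xcl1 at 0.986 and Cxcl12 at 0.980. There the pairs Cxcl9 and Ccl17, Ccl17 and Ccl22, and Xcl1 and Cxcl12 overlapped.

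Ccl25 made up 20.8 to 21.3% of the summed TPM of the 10 chemokines in WT and 41.1 to 42.1% in Aire-KO. Ccl20 went from a mean of 10.5% to 2.43%, Ccl22 from 2.74% to 0.284% and Ccl21a from 26.5% to 16.2%, while Cxcl10 stayed near its share, at 11.03% and 11.7%. The sum itself was 3927, 3391 and 3681 TPM in WT and 5101 and 4873 in Aire-KO, without overlap. The Ccl21a share varied from 17.6 to 36.5% in WT and from 15.2 to 17.3% in Aire-KO. Its main transcript Ccl21a-201 was at a mean of 819 TPM in WT and 808 in Aire-KO, without TMM scaling. The fall of Ccl21a in TPM lay mostly in Ccl21a-202, at 8.47 to 420 TPM in WT and 0 in Aire-KO, as split by kallisto.

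**Figure D3:**
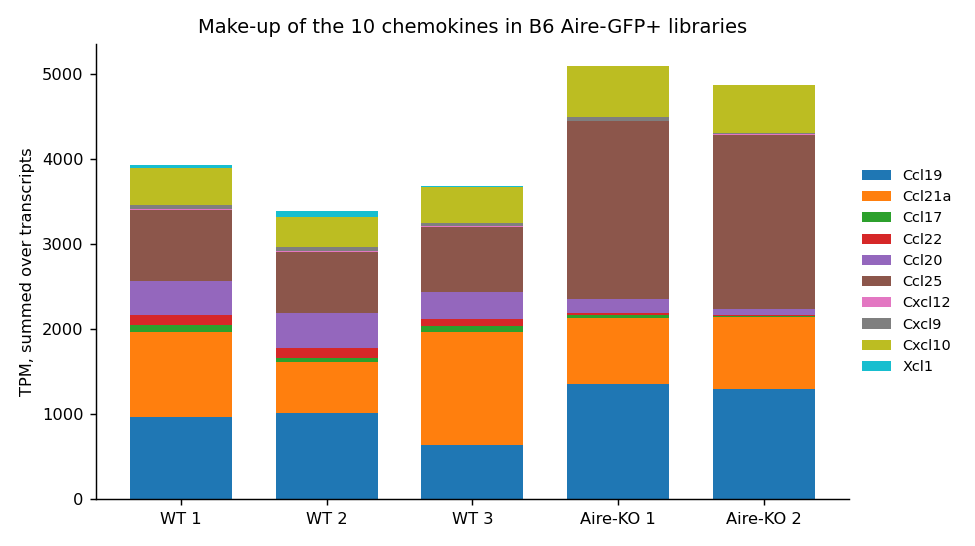
Stacked TPM of the 10 chemokines, without TMM scaling, in each B6 Aire-GFP+ library, with 1 bar per library starting at 0. The Ccl25 band was the widest in both Aire-KO libraries, and the bars reached 3391 to 3927 TPM in WT and 4873 to 5101 in Aire-KO.

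Within Cxcl10, the retained-intron transcript Cxcl10-204 took 7.84 to 9.3% of the gene's estimated counts in B6 WT and 2.4 to 2.92% in Aire-KO, ranges that did not overlap. The main transcripts of Ccl20 and Cxcl12 kept similar shares, with Ccl20-202 at a mean of 71.8% in WT and 70.5% in Aire-KO and Cxcl12-202 at 78.4% and 84.1%. These shares are kallisto estimates and were not tested.

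In the 6 control libraries of mTEChi (WT with PBS, WT with DMSO and Nfe2l2+/+), CPM per kilobase of exon put Cxcl10 (129), Ccl20 (129) and Ccl22 (125) at the top. Ccl25 followed at 50.2, Cxcl9 at 27.6, Ccl17 at 22.8, Xcl1 at 9.003, Cxcl12 at 6.66 and Ccl19 at 3.90, with Ccl21a at 0. Only Ccl19 and Ccl21a were separated among neighbours in this order. The places of Ccl25 and Cxcl12 depended on the length used: per kilobase of the longest transcript Ccl25 was at 146.5, above all the others, and Cxcl12 at 9.68, above Xcl1 at 9.003. The gene counts do not show which transcripts were in use in mTEChi. Lengths of the transcripts in use may differ from both lengths, so the order holds only for the length chosen.

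**Figure D4:**
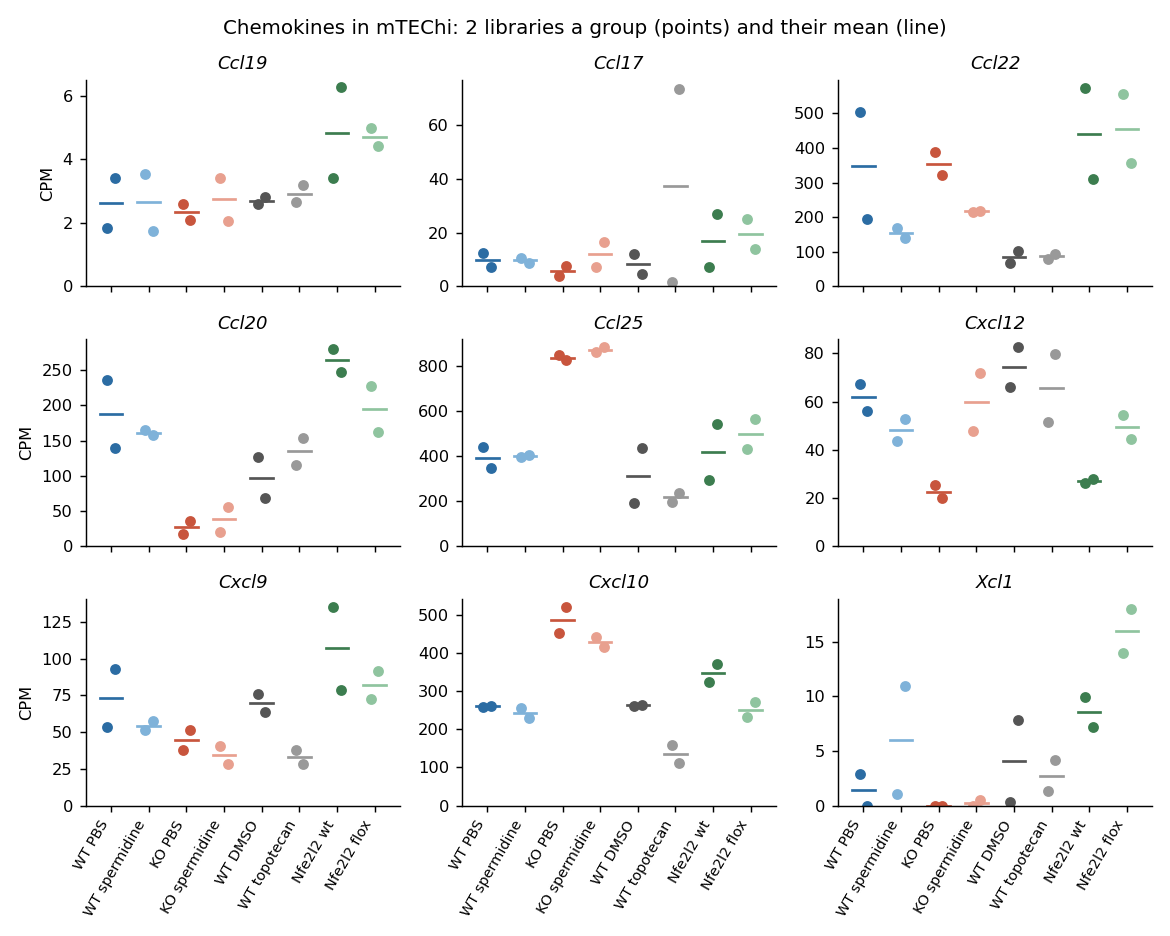
CPM of 9 chemokines in the 8 mTEChi groups, with 2 points for the libraries and a line for the mean of each group. Ccl20 was lowest and Ccl25 and Cxcl10 highest in the Aire-KO groups, and Cxcl10 was lowest with Topotecan.

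None of the 9 chemokines passed the test with Spermidine, in WT mTEChi or in Aire-KO mTEChi. By the edgeR test no gene of 18418 (0%) passed in WT and 0.00543% in Aire-KO, with 709 and 759 genes at an unadjusted p under 0.05. DESeq2 called 1 of the chemokines in Aire-KO, Cxcl12, and none in WT, and edgeR without the low-count filter called Cxcl12 and Ccl22 in Aire-KO and Ccl22 in WT. In the Aire-KO libraries Cxcl12 was at 25.17 and 20.04 CPM with PBS and at 47.6 and 72.0 with Spermidine, without overlap. Its log2 change was 1.41 (SE 0.27, 95% interval 0.82 to 1.99, unadjusted p = 0.000143, adjusted p = 0.706), and 1.42 with an adjusted p of 0.0348 in DESeq2. In WT, Cxcl12 changed by -0.37 (95% interval -0.92 to 0.18), and the difference of these effects was 1.78 (SE 0.38, unadjusted p = 0.000306, adjusted p = 1.00). For that difference, too, 0 of 9 chemokines and 0% of all genes passed, with 619 genes at an unadjusted p under 0.05 and 0 of the 9 called by DESeq2.

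Ccl22 did not pass with Spermidine in either genotype, although it was called without the low-count filter (adjusted p = 5.74e-09 in WT and 0.00820 in Aire-KO). In WT the 503.2 and 194.1 CPM with PBS stood against 170 and 140.7 with Spermidine (log2 -1.17, 95% interval -1.97 to -0.37, adjusted p = 0.999), and without WT PBS replicate 1 the change was -0.32. In Aire-KO 387.1 and 322.3 CPM stood against 216.1 and 219 (log2 -0.70, 95% interval -1.50 to 0.09, adjusted p = 1.00). Neither pair of groups overlapped, but without the share of all genes that separated this is not read as an effect of Spermidine. For Ccl20, Ccl25 and Cxcl10 the intervals in WT were -1.04 to 0.59, -0.64 to 0.69 and -0.42 to 0.23.

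Topotecan lowered Cxcl10 and changed no other chemokine past the test, so 1 of 9 passed against 0.652% of all genes (0.195% higher and 0.456% lower). Cxcl10 was at 262.6 and 265.2 CPM with DMSO and at 158 and 112.8 with Topotecan. The DMSO libraries were nearly equal and both Topotecan libraries lay below them (log2 -0.96, SE 0.15, adjusted p = 0.0141). This call was lost when the 4 libraries were fitted alone (adjusted p = 0.277), without DMSO replicate 1 (0.0579) and without Topotecan replicate 2 (0.0604). Cxcl9, the other interferon-inducible Cxcr3 ligand, was at 76.3 and 63.7 CPM with DMSO and at 37.8 and 28.0 with Topotecan. Its groups did not overlap either (log2 -1.09, SE 0.31, adjusted p = 0.124), and DESeq2 gave an adjusted p of 0.0361. The share of all genes that separated was not counted here either. None of the 24 interferon response genes listed passed with Topotecan, and their median change was 0.

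Ccl17 showed how far 1 library can carry a mean: it was at 12.04 and 4.49 CPM with DMSO and at 1.66 and 73.3 with Topotecan, from 5 and 230 counts. Its log2 change of 2.18 (adjusted p = 0.365) became -2.30 (adjusted p = 0.333) without Topotecan replicate 2. Fibroblast markers summed to 400 to 771 CPM with DMSO and to 201 to 1465 with Topotecan, and dendritic cell markers to 483 to 529 and 414 to 690, whose part in these values was not tested. Ccl20 (0.47, 95% interval -0.35 to 1.29) and Ccl25 (-0.54, 95% interval -1.21 to 0.14) did not pass. Aire itself was at 1500 and 1180 CPM with DMSO and at 819 and 641 with Topotecan (log2 -0.88, adjusted p = 0.0125), and Xcr1, the receptor of Xcl1, was at a mean of 15.1 CPM with DMSO and 1.33 with Topotecan (log2 -3.49, adjusted p = 0.0861).

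In the libraries labelled Nfe2l2 fl/fl, 0 of 9 chemokines and 0% of all genes passed against Nfe2l2+/+ in the edgeR test, with 973 genes at an unadjusted p under 0.05 and 0 chemokines called by DESeq2. Cxcl12 was at 26.1 and 27.9 CPM in +/+ and at 54.5 and 44.5 in fl/fl, without overlap (log2 0.87, 95% interval 0.33 to 1.41, unadjusted p = 0.00388, adjusted p = 0.639). Cxcl10 was at 324.5 and 371.8 CPM in +/+ and at 232.3 and 270.6 in fl/fl, again without overlap (log2 -0.47, 95% interval -0.79 to -0.15, adjusted p = 0.716). Ccl20 and Xcl1 had groups without overlap too, at log2 -0.44 (95% interval -1.23 to 0.36) and 0.89 (95% interval -1.45 to 3.24). The other tested chemokines overlapped. The share of all genes without overlap was not counted, so these separations are not read as an effect of the genotype.

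**Figure D5:**
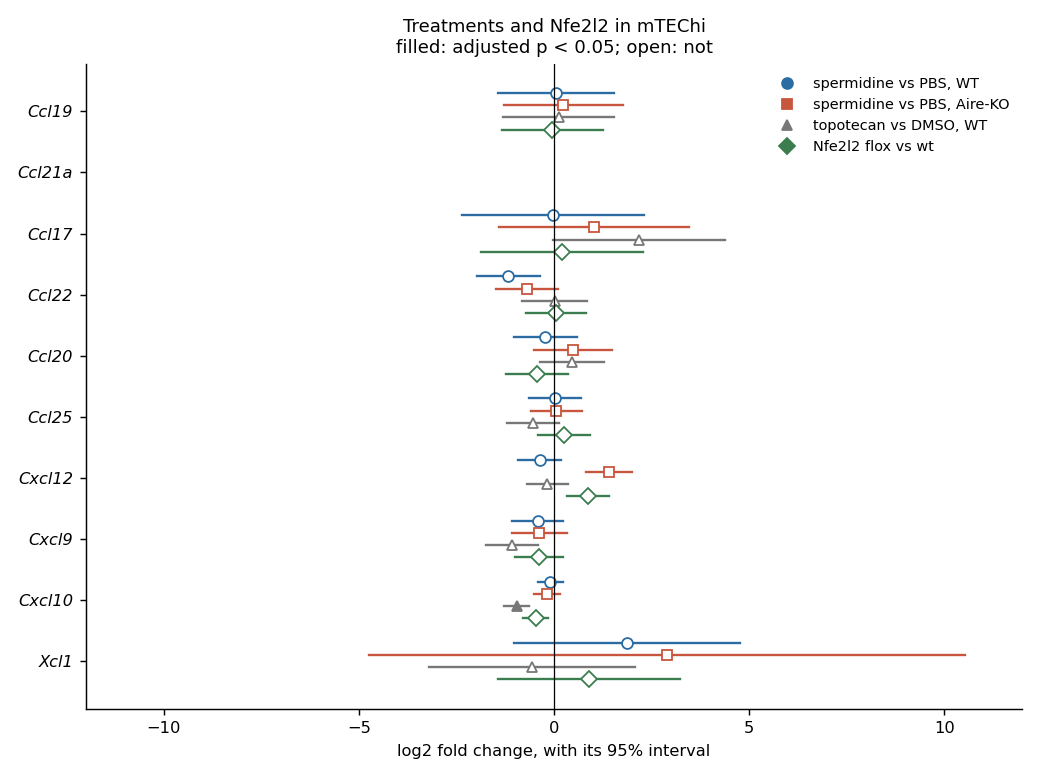
Log2 fold change with its 95% interval for 9 chemokines under Spermidine in WT and in Aire-KO, Topotecan in WT, and Nfe2l2 fl/fl against +/+, all in mTEChi; filled points passed the test. Only Cxcl10 with Topotecan, at -0.96, was filled.

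Across the 16 mTEChi libraries, with values as log2(CPM + 1) centred on each experiment, Ccl20 and Ccl25 ran opposite (Pearson r = -0.81), as did Ccl20 and Cxcl10 (-0.71), and Ccl25 went with Cxcl10 (0.65). The neighbours Ccl17 and Ccl22 did not go together (-0.08). These points share the Aire-KO and WT groups, so they describe the same difference and not a separate one. Among genes at 10 CPM or more, the 3 most like Ccl20 were Calhm3 (r = 0.953), the chemokine Ccl9 (0.952) and Nos1 (0.942). For Ccl25 they were S100a4 (0.929), Rab8b (0.917) and Slc41a1 (0.907), and for Cxcl10 Utf1 (0.942), Calcb (0.938) and Rpl10 (0.936). Likeness was weaker for Ccl22, where Rab5a led at 0.781, and for Cxcl12, where Cpxm1 led at 0.875. For Ccl17 the leading gene was Dock6 (0.879), and for Cxcl9 it was Polh (0.896). Each named gene was among the 3 highest of 11054 correlations over 16 libraries, and no chance level was worked out. Ccl17 was also at 73.3 CPM in Topotecan replicate 2 and 1.66 in replicate 1, and the part of that library was not tested.

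Other chemokine ligands were called lower more often than higher without Aire. Of 26 tested in B6 Aire-GFP+ cells, 14 were lower and 2 higher, where 22.3% of all genes were lower and 19% higher, with a median log2 change of -1.7 against -0.12 over all genes. Ppbp, a platelet-type neutrophil attractant, was at a mean of 0.0595 CPM in Aire-KO and 12.1 in WT (log2 -7.52, adjusted p = 0.000206), and Ccl1, the ligand of Ccr8, was at 0.391 and 27.7 (log2 -6.01, adjusted p = 0.000187). Cxcl17 (-6.24) and Cxcl5 (-3.88) also fell. In the mTEChi average 10 of 27 fell, 2 rose and 15 did not pass, where 12.5% of all genes fell and 10.3% rose, with a median of -0.97 against -0.05. There Ccl6 went from a mean of 84.6 CPM in WT to 12.95 in Aire-KO (log2 -2.70, adjusted p = 0.000502), and Cxcl13, the B cell follicle chemokine, from 24.5 to 4.15 (-2.67, adjusted p = 9.47e-05). Cxcl17 (-3.86) and Cxcl3 (-2.56) fell as well. With library totals alone 16 fell and 0 rose in B6, and 14 fell and 1 rose in mTEChi.

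Among the receptors of the 10 chemokines, Ccr7 and Ccr6 passed in mTEChi and Ccr9 and Ackr3 in B6 Aire-GFP+ cells. Ccr7 rose in Aire-KO mTEChi from a mean of 189.5 to 478 CPM (log2 1.34, adjusted p = 0.000462), and Ccr6, the Ccl20 receptor, rose from 20.4 to 45.1 while Ccl20 fell (log2 1.14, adjusted p = 0.00125). In B6 Aire-GFP+ cells Ccr7 (0.64, adjusted p = 0.0892) and Ccr6 (0.52, adjusted p = 0.186) did not pass, Ccr9 fell from 9.07 to 3.11 CPM (-1.55, adjusted p = 0.0174) and Ackr3 from 3.65 to 0.604 (-2.54, adjusted p = 0.0170). Ccr4 passed in neither (-0.29 in B6 and 0.38 in the mTEChi average). Xcr1 did not pass (-0.89 and -0.46), nor did Ackr4 (-1.97 and -0.75), Cxcr4 was tested only in mTEChi (-1.20, adjusted p = 0.357), and Cxcr3 was too low to test. Ackr2, a scavenger of inflammatory CC chemokines, rose in both, from 9.51 to 24.2 CPM in B6 (1.34, adjusted p = 0.00275) and from 8.08 to 53.5 in mTEChi (2.83, adjusted p = 4.55e-05). Over the whole list of 22 receptors, 1 rose and 6 fell of 20 tested in B6, Ccr2 (-2.75) and Ccr1 (-1.99) among them, and 3 rose and 0 fell of 19 in the mTEChi average (1 and 9, and 3 and 1, with library totals alone). Of all genes, 19% rose and 22.3% fell in B6 and 10.3% rose and 12.5% fell in the average.

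Genes of the RANK, CD40 and lymphotoxin pathways, which drive mTEC maturation through NF-kB and several chemokine genes, rose more often than they fell without Aire under TMM scaling. Of 24, 9 rose and 1 fell in B6 Aire-GFP+ cells (19% and 22.3% of all genes), with Tnfrsf11a, the gene of the receptor RANK, from a mean of 96.5 to 215 CPM (log2 1.16, adjusted p = 0.000427) and Nfkb1 from 104 to 208.5 (1.01, adjusted p = 0.000316). Map3k14 (0.91) and Bcl3 (0.94) rose as well. In the mTEChi average 14 rose and 3 fell (10.3% and 12.5% of all genes), with Tnfrsf11b, the decoy receptor of RANK ligand, from 223.5 to 499 CPM (1.15, adjusted p = 3.69e-06), Relb at 0.85 and Birc3 at 0.83, while Traf5 fell by 0.86. The list medians were 0.04 and 0.49. In B6 the balance turned with the scaling: with library totals alone 4 rose and 7 fell there (median -0.36), Bcl3 was no longer called (adjusted p = 0.204), and 11 rose and 4 fell in mTEChi.

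Interferon response genes fell more often than they rose in the B6 cells in which Cxcl10 rose. Of 24, 6 rose and 12 fell in B6 Aire-GFP+ cells, against 19% and 22.3% of all genes, so the share that rose was near the background. Isg15 went from a mean of 22.2 to 1.38 CPM (log2 -3.98, adjusted p = 0.000526) and Ifit3 from 50.04 to 4.22 (-3.58, adjusted p = 0.000115). Ifit2 (-3.31) and the transcription factor gene Irf7 (-2.36) fell too. In the mTEChi average 8 rose and 9 fell, against 10.3% and 12.5% of all genes, with Irf8 from 329 to 1032 CPM (1.64, adjusted p = 8.29e-05), Isg15 at -1.33, Ifit3 at -1.26 and Gbp3 at -1.01. The list medians were -0.37 and -0.17, and with library totals alone 1 rose and 15 fell in B6 and 3 rose and 12 fell in mTEChi. No gene of the ligand, receptor or pathway lists passed with Spermidine, Topotecan or in Nfe2l2 fl/fl.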

How the data were processed

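The 10 chemokines and the gene lists were chosen with earlier results of these data known. For mTEChi the authors deposited raw gene counts, and for B6 Aire-GFP+ cells they deposited kallisto estimated counts and TPM per transcript. Per the submitters' processing notes, STAR, featureCounts, kallisto, TopHat2 2.1.1, SAMtools 1.3.1 and mm10 were used, with roles not given. Per the labels' protocols, libraries were made by Smart-seq2 and Nextera XT, without strand or molecular identifiers, so intervals from counts cover counting error only.

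Estimated counts were summed to GENCODE M21 symbols (116816 of 118489 transcripts matched; the 1673 others held 0.541 to 0.578% of counts) and rounded. edgeR 4.0.16 (R 4.3.3) quasi-likelihood tests used filterByExpr and TMM, 1 fit over all 16 mTEChi libraries and 1 over the 5 B6 libraries, with Benjamini-Hochberg adjustment over all genes and calls at an adjusted p under 0.05. Fold changes are fitted values, and 95% intervals use the moderated degrees of freedom. The test was tested on simulated data: at 4-fold it recovered 60.8% of changed genes for Aire loss in B6 and 51.5% in mTEChi with PBS, and at 2-fold 34.7% and 8.25%. At 2-fold it recovered 16.5% for Spermidine in WT, 15.3% for Topotecan and 13.7% for Nfe2l2. The simulation changed few genes, in B6 98 by 2-fold and 97 by 4-fold of 17428. These shares therefore do not measure recovery where many genes changed. Named genes were the 10 chemokines, their receptors, Aire and, per list and comparison, up to 4 called genes with the largest change and a mean of 5 CPM or more, plus the 3 most like genes. Lists of cell type markers were summed as CPM. Replicates of a group differed beyond sampling noise (chi-square per degree of freedom 3.05 to 19.7). Replicate numbers were not used to pair samples in the main fit. Alternatives were RLE scaling, library totals, no filter, DESeq2 1.42.0, limma-voom (limma 3.58.1), a replicate block, each experiment alone and leaving out each library. The 6 NOD and 3 B6 x NOD F1 samples were not analysed here.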

Additional observations from a re-analysis of the deposited data

Results flagged for a closer look

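The effect of Aire loss differed between B6 Aire-GFP+ cells and mTEChi for 3 chemokines, in a test of the difference itself that was chosen after seeing the data (edgeR, Benjamini-Hochberg adjustment). Ccl22 fell by 2.31 on the log2 scale in B6 and changed by 0.25 in the mTEChi average, a difference of -2.46 (adjusted p = 0.00158), and it was lower in 2 of 2 B6 Aire-KO libraries than in any WT library. Cxcl12 differed by -2.29 (adjusted p = 0.00284), with -2.96 in B6 and -0.57 in mTEChi. That mTEChi value averages -1.46 with PBS and 0.32 with Spermidine, so with PBS Cxcl12 fell in both sorts. Ccl25 rose in both and differed by 0.94 (adjusted p = 0.000608), with 1.95 in B6 and 1.11 in mTEChi. The 3 differences passed under RLE scaling, library totals alone and without each of the 13 libraries in turn, with adjusted p up to 0.0163, 0.0302 and 0.00682. The sort, the counting method and the experiment cannot be told apart.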

How the results depend on the processing

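Counts of chemokines called moved in these settings. Without the low-count filter they were 1 for Spermidine in WT (0 with it), 2 in Aire-KO (0), 1 for the difference of Spermidine effects (0) and 4 for Topotecan (1). DESeq2 gave 1 for Spermidine in Aire-KO and 2 for Topotecan, the 4 Topotecan and DMSO libraries alone gave 0, and limma-voom gave 3 for the mTEChi average (6). Leaving out each library gave 5 to 8 for B6 (7), 2 to 3 for Aire loss with PBS (4), 1 to 2 with Spermidine (3), 3 to 5 for the average (6) and 0 to 2 for Topotecan (1). Over all genes such fits called 4785 to 6961 in B6, 636 to 1185 with PBS, 553 to 793 with Spermidine, 2816 to 3399 in the average, 45 to 170 with Topotecan and 0 to 11 for Nfe2l2. Other all-gene counts beyond 1.5 times the main one were 1068, 836, 2753 and 60 with limma-voom (Aire loss with PBS, with Spermidine, averaged, and Topotecan), 111, 76, 78, 1006 and 134 without the filter (Spermidine in WT, in Aire-KO, their difference, Topotecan, Nfe2l2), 6, 3, 429 and 28 with DESeq2 (the last 4 of these), 196 with the replicate block for Topotecan, and 1 for Topotecan in its experiment alone. The cause of these moves was not tested, and low counts limit the values of Ccl19, Ccl21a and Xcl1 in mTEChi.

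Same-numbered libraries showed little shared deviation (correlations -0.01 to 0.057 in mTEChi and 0.03 to 0.032 in B6). With so few libraries in a group these values cannot exclude pairing, and the main fit did not pair them. With a replicate block, 8 chemokines were called in B6 (Ccl21a added at 0.61, adjusted p = 0.0162), 4 for Aire loss with PBS, 3 with Spermidine, 5 in the average (Cxcl9 lost, adjusted p = 0.0512), 0 for Spermidine and Nfe2l2, and 1 for Topotecan.

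No called change reversed. Of 1107 chemokine values under alternatives, 78 had the other sign, and none of these was called in the main test or the alternative. Outside left-out libraries these were the following. With library totals Cxcl9 -0.36 (Aire loss in B6), Ccl22 -0.17 (Aire loss in mTEChi with PBS), Ccl19 -0.14 (Aire loss with Spermidine), Cxcl10 -0.0803 (B6 minus mTEChi). With limma-voom Cxcl9 -0.00891 (Aire loss in B6), Ccl19 0.00383 (the mTEChi average), Cxcl9 -0.0516 (the difference of Spermidine effects), Xcl1 -0.60 (the difference of Spermidine effects), Xcl1 0.44 (Topotecan), Ccl19 0.0232 (Nfe2l2 fl/fl). With the replicate block Cxcl9 -0.00634 (Aire loss in B6), Ccl19 0.00698 (Nfe2l2 fl/fl). With RLE Ccl22 -0.0067 (Aire loss in mTEChi with PBS). With DESeq2 Ccl22 -0.00198 (Aire loss in mTEChi with PBS), Xcl1 -0.15 (the difference of Spermidine effects). With the experiment alone Ccl22 -0.00823 (Aire loss in mTEChi with PBS). With no filter Ccl22 -0.0578 (Topotecan). Leaving out a library turned the sign of further uncalled changes, which ranged as follows. For Aire loss in B6, Cxcl9 -0.37 to 0.37. For Aire loss in mTEChi with PBS, Ccl19 -0.54 to 0.34, Ccl22 -0.51 to 0.87. For Aire loss with Spermidine, Ccl17 -0.41 to 0.77, Ccl19 -0.37 to 0.64, Cxcl12 -0.00996 to 0.59. For the mTEChi average, Ccl17 -0.59 to 0.00205, Ccl19 -0.25 to 0.25, Ccl22 -0.0251 to 0.68. For Spermidine in WT, Ccl17 -0.35 to 0.41, Ccl19 -0.55 to 0.55, Ccl20 -0.55 to 0.21, Ccl25 -0.13 to 0.21, Cxcl9 -0.78 to 0.0324, Xcl1 -0.55 to 7.25. For Spermidine in Aire-KO, Ccl19 -0.17 to 0.54, Ccl20 -0.39 to 1.15. For the difference of Spermidine effects, Ccl19 -0.33 to 0.78, Ccl20 -0.16 to 1.37, Ccl22 -0.39 to 0.97, Ccl25 -0.15 to 0.18, Cxcl10 -0.19 to 0.0269, Cxcl9 -0.43 to 0.40, Xcl1 -4.35 to 3.46. For Topotecan, Ccl17 -2.29 to 3.14, Ccl19 -0.0279 to 0.23, Ccl22 -0.26 to 0.31, Ccl25 -1.02 to 0.15, Cxcl12 -0.53 to 0.0965, Xcl1 -1.60 to 3.06. For Nfe2l2 fl/fl, Ccl17 -0.47 to 1.42, Ccl19 -0.42 to 0.46, Ccl22 -0.33 to 0.55, Ccl25 -0.12 to 0.77, Cxcl9 -0.71 to 0.0616. For B6 minus mTEChi, Xcl1 -3.79 to 2.16, Ccl17 -1.11 to 0.17.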
